A study of Mus musculus with 4 samples.

Results

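Smooth muscle contractile genes encode the actin, myosin and associated proteins with which smooth muscle cells shorten. The 10 genes described are Acta2, Actg2, Cnn1, Tagln, Myh11, Des, Lmod1, Mylk, Myl9 and Synpo2. They were chosen by gene name from the probes that are not controls, and 13 of 55681 probes, or 10 of 34761 genes, carried these names. The 10 genes were chosen with their signals at the 4 times already known, so those signals are given as a description and no test was made.

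In smooth muscle, calcium activates the kinase Mylk, which phosphorylates the regulatory myosin light chain, and myosin then pulls on actin filaments. In a healthy liver many of these genes, though not all, are used mainly by the muscle layer of portal and central vessels. The wall of the gallbladder and of large bile ducts holds smooth muscle as well. Stellate cells, the vitamin A storing cells of the sinusoid, contain desmin and are known to switch on Acta2 and collagen genes when they are activated in liver injury.

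The livers came from male C57BL/6 mice, an inbred laboratory strain. A diet rich in fat and sucrose was started at 5 weeks of age and lasted 0, 5, 10 or 15 weeks, so the animals were 5, 10, 15 and 20 weeks old when sampled. Each time was measured on 1 array. The series text speaks of 4 mice at each time and does not say whether an array holds RNA of 1 mouse or of a pool. Age-matched mice on another diet are not analysed here, so diet and age cannot be told apart. There are no replicates, so no difference below has a check against the spread between animals.

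Values are log2 scaled signals, that is, the log2 of a probe's fluorescence minus the 75th percentile of its array, so 0 is the brightness of the 75th percentile spot. A gene counted as measured between 2 times when its brightest probe was well above background at both, and a difference of at least 2-fold was counted as higher or lower. Where a probe was above background at only 1 of the 2 times, the fold is a bound, written as "at least". It rests on the lowest signal of any probe well above background on the dim array, so it is not a cautious limit. For Actg2 at 10 against 0 weeks the log2 bound was -7.16, and the difference as read was -7.22. The arrays had 44.9%, 44.5%, 44.6% and 48.3% of spots well above background at 0, 5, 10 and 15 weeks, with 0 saturated spots. The 15-week array was also the brightest, with 75th percentile signals of 208, 208, 194 and 272 in the same order. Repeated spots of 1 probe had a median SD between 0.0645 and 0.0743 (log2), an error within arrays that leaves out the animals. Over all measured genes the median log2 difference from 0 weeks was -0.02, -0.01 and -0.25 after 5, 10 and 15 weeks. All 17 hepatocyte markers were above background on every array.

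The promoters of Acta2, Myl9 and Cnn1 are shown because serum response factor, with its partner myocardin, is known to switch on contractile genes through CArG boxes, and these genes represent windows with and without one. RefSeq (GRCm38.p6) promoter windows of 300 bases, from 250 before to 50 after the gene's start, were found for 7 of the 10 genes. Windows for Actg2, Tagln and Myh11 were not used here. The 250 bases before the start are printed on the gene's own strand, 5′ to 3′, and capitals mark CArG boxes, including those with 1 G or C in the 6-base core of A and T. They lie at chr19:34255374-34255623 on the minus strand for Acta2, chr2:156775214-156775463 on the plus strand for Myl9 and chr9:22099003-22099252 on the plus strand for Cnn1.
Acta2: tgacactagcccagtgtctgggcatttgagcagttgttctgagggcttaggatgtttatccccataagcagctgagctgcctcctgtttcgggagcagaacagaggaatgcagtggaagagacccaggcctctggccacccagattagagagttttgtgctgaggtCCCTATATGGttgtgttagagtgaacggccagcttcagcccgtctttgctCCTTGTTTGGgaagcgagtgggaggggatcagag
Myl9: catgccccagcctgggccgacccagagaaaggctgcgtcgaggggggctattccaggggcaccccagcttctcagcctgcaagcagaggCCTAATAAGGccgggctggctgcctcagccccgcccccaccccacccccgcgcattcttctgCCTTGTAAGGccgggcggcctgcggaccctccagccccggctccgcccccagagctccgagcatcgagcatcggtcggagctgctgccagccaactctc
Cnn1: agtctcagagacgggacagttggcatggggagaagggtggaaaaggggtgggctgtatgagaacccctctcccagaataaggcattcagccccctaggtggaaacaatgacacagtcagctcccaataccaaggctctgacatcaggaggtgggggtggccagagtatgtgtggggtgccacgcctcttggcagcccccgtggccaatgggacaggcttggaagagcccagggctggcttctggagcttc
A CArG box reads as a CArG box on both strands, so 1 search covered both. Myl9 held a box with a core of A and T only, starting 161 bases before the gene's start, and 1 of the 7 windows had such a box, against 1.63% of 32851 windows of all genes. When 1 G or C was allowed in the core, boxes were found in 2 of the 7 windows, Acta2 at 84 and 34 bases and Myl9 at 161 and 99 bases before the start, against 9.98% of all windows. Cnn1, Des, Lmod1, Mylk and Synpo2 had none in these 300 bases, which says only that the letters are absent there.

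The 2 smooth muscle actins were both much lower at 10 weeks. Acta2, the alpha-actin of vascular smooth muscle and of activated stellate cells, had log2 scaled signals of 4.11 at 0 weeks, 2.96 at 5 weeks, -0.16 at 10 weeks and 2.41 at 15 weeks. The array at 0 weeks was brightest, the array at 10 weeks was dimmest, and the array at 15 weeks lay between 5 and 10 weeks. Its probe, at chr19:34316060-34316119 of mm9 on the minus strand, was printed in 10 spots whose SD on the log2 scale was 0.117 or less on every array. Relative to 0 weeks the log2 difference was -1.15 at 5 weeks, -4.27 at 10 weeks and -1.70 at 15 weeks, and from 10 to 15 weeks the signal was 5.94-fold higher. At 15 weeks 1 of the 10 spots was marked uneven or an outlier and left out, and 6 lay in locally bright areas of the array.

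Actg2, the gamma-actin of visceral smooth muscle, was measured by 1 probe at chr6:83462904-83462963 on the minus strand. Its log2 scaled signals were 3.59, 1.35 and -0.25 at 0, 5 and 15 weeks, and at 10 weeks it was not well above background. Unlike the Acta2 signal, the Actg2 signal could thus not be told from background at 10 weeks. It was 4.72-fold lower at 5 weeks, at least 143-fold lower at 10 weeks and 14.3-fold lower at 15 weeks than at 0 weeks. From 10 to 15 weeks it was at least 10.1-fold higher, and at 15 weeks it was still 3.02-fold lower than at 5 weeks. Actg2 and Acta2 proteins are near-identical. Their 60-base probes matched each other at no more than 21 positions and shared no run over 6 bases. Neither probe was compared with the other gene's transcript, so binding to that transcript was not tested.

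Calponin 1 (Cnn1), which binds actin and slows the myosin motor, was measured by a probe at chr9:21913058-21913117 on the plus strand. It gave log2 scaled signals of 3.25, 1.59 and -0.15 at 0, 5 and 15 weeks and was not well above background at 10 weeks. The order of the 4 arrays was that of Actg2. Cnn1 was 3.16-fold lower at 5 weeks, at least 113-fold lower at 10 weeks and 10.5-fold lower at 15 weeks. It was at least 10.8-fold higher at 15 than at 10 weeks and 3.33-fold lower at 15 than at 5 weeks.

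Transgelin (Tagln), the actin-binding protein also called SM22-alpha, had a different end point. Its log2 scaled signals were 4.85, 3.67, 2.46 and 4.13 at 0, 5, 10 and 15 weeks, read by a probe at chr9:45738097-45738156 on the minus strand. The dip was again at 10 weeks, and the 15-week array was brighter than the 5-week array by 0.46 on the log2 scale. Against 0 weeks Tagln was 2.27-fold lower at 5 weeks and 5.25-fold lower at 10 weeks. The 15-week difference was -0.72, within 2-fold, and it was 0.29 when arrays were scaled to the median level of hepatocyte markers. From 10 to 15 weeks Tagln was 3.18-fold higher. Among the actin, calponin, transgelin and light chain families, probes of different genes matched each other at 17 to 27 of 60 positions. Probes were not compared with transcripts of related genes, so binding to those was not tested.

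The myosin motor showed the same dip. Myh11, the smooth muscle myosin heavy chain, is regarded as the most specific marker of mature smooth muscle and was read at chr16:14202190-14202249 on the minus strand. Its log2 scaled signals were 0.29, -1.05 and -1.68 at 0, 5 and 15 weeks, and it was not well above background at 10 weeks. Myh11 was 2.54-fold lower at 5 weeks, at least 14.6-fold lower at 10 weeks and 3.92-fold lower at 15 weeks, and at least 3.72-fold higher at 15 than at 10 weeks.

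Myl9, the regulatory light chain on which contraction is switched, gave 4.93, 3.81, 1.98 and 3.28 on the log2 scale at 0, 5, 10 and 15 weeks from a probe at chr2:156607301-156607360 on the plus strand. It was above background throughout, lowest at 10 weeks, and its 15-week signal lay under that of 5 weeks. Against 0 weeks it was lower 2.17-fold after 5 weeks, 7.75-fold after 10 weeks and 3.14-fold after 15 weeks. At 15 weeks the signal was 2.47-fold that of 10 weeks. With hepatocyte marker scaling Myl9 was within 2-fold at 5 weeks (-0.58) and at 15 weeks (-0.64), as were Acta2 (-0.62 and -0.69) and Myh11 (-0.81 and -0.96). With the median difference of those markers Myl9, Acta2 and Myh11 stayed over 2-fold lower at 5 weeks (-1.03, -1.07 and -1.255). At 15 weeks only Myh11 did (-1.265), with Myl9 at -0.94 and Acta2 at -0.99.

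The kinase did not differ 2-fold. Mylk has probes at chr16:35001266-35001325 and chr16:34953958-34954017 on the plus strand. The brighter probe gave log2 scaled signals of 0.73, 0.51, 0.12 and 0.22 at 0, 5, 10 and 15 weeks, and the dimmer probe -2.42, -2.39, -2.81 and -2.69. Neither probe differed 2-fold between any 2 arrays, although both were lowest at 10 weeks. The Mylk gene also makes a non-muscle kinase from an earlier start, and which transcripts the probes read was not analysed here. At 10 weeks the brighter probe differed from 0 weeks by -0.62, while its differences of -0.22 at 5 weeks and -0.52 at 15 weeks became 0.31 and 0.49 with hepatocyte marker scaling. With the median difference of those markers the 5-week and 15-week differences were -0.13 and 0.19.

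Desmin (Des), the intermediate filament protein of muscle and also of stellate cells, gave log2 scaled signals of 0.01, -1.11, -2.09 and -0.83 at 0, 5, 10 and 15 weeks. Its probe, placed at chr1:75363404-75363629 on the plus strand, was printed in 10 spots with SDs from 0.0621 to 0.214, and 2 spots were left out at 15 weeks. Desmin was 2.17-fold lower at 5 weeks and 4.27-fold lower at 10 weeks, and 2.39-fold higher at 15 than at 10 weeks. At 15 weeks it differed from 0 weeks by -0.84, within 2-fold, and by 0.17 with hepatocyte marker scaling.

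Synpo2, an actin-bundling protein of smooth and striated muscle, was read by 3 probes, of which the probe at chr3:122779459-122779518 on the minus strand was above background on 3 arrays and the other 2 on none. Its log2 scaled signals were -1.40, -2.05 and -3.66 at 0, 5 and 15 weeks, with no signal well above background at 10 weeks. At 15 weeks Synpo2 was near the lowest measurable signal, where it was 4.80-fold lower than at 0 weeks and 3.07-fold lower than at 5 weeks. Both calls were lost with normexp background correction, at log2 differences of -0.99 and -0.66, and the mean of its probes gave -0.31 against 5 weeks. At 10 weeks it was at least 4.52-fold lower than at 0 weeks. Lmod1, which starts new actin filaments in smooth muscle, was not well above background on any array, with its probe at chr1:137264581-137264640 on the plus strand.

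**Figure D1:**
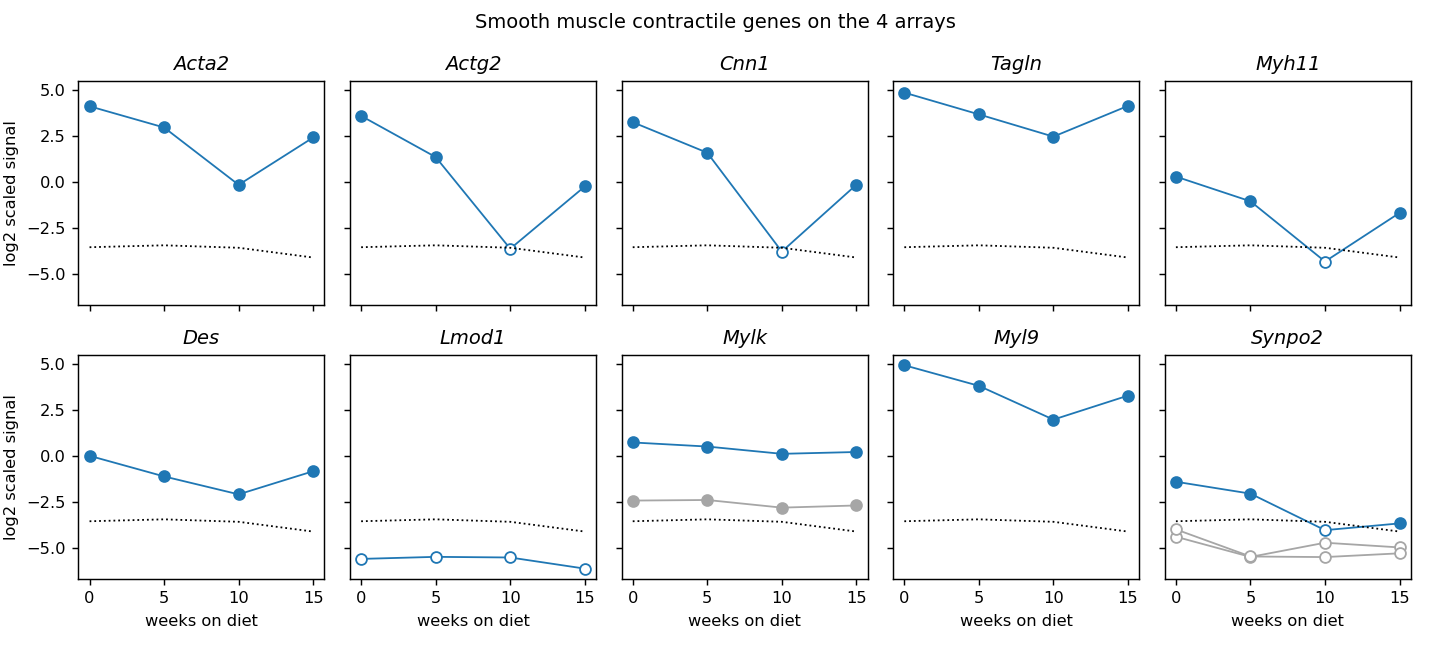
Log2 scaled signal (vertical axis) of every probe of the 10 genes against weeks on the diet (horizontal axis), 1 array a time. Blue is the probe used for the gene and grey the other probes, open circles are not well above background, and the dotted line is the lowest signal among probes well above background on that array. Acta2 was at 4.11 at 0 weeks, -0.16 at 10 weeks and 2.41 at 15 weeks, while both Mylk probes stayed within 2-fold.

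Counted together, most of the genes were lower at each later time than at 0 weeks, and lowest at 10 weeks. At 5 weeks 7 of the 9 measured genes were at least 2-fold lower and 0 were higher, where 1.57% of all measured genes were lower and 2.3% higher. At 10 weeks 4 of 5 measured genes were lower and 0 higher, against 1.53% and 2.92% of all genes, and the other 4 with a signal at 0 weeks had bounds past 2-fold. At 15 weeks 6 of 9 were lower and 0 higher, against 5.03% and 5.76% of all genes. With hepatocyte marker scaling these counts of lower genes were 2 at 5 weeks and 3 at 15 weeks. That scaling put the all-gene median at 0.52 and 0.76 at those times. With the median difference of the same markers the counts were 7 at 5 weeks and 4 at 15 weeks. The choice of genes used these differences, so nothing is read from the counts. The 3 comparisons share the array at 0 weeks.

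The median log2 difference of the measured genes from 0 weeks was -1.15, -2.39 and -1.70 after 5, 10 and 15 weeks. With the 4 genes that were in the background at 10 weeks placed at their bounds, the 10-week median was -2.95. Taken from the all-gene median, the 15-week value was -1.45.

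**Figure D2:**
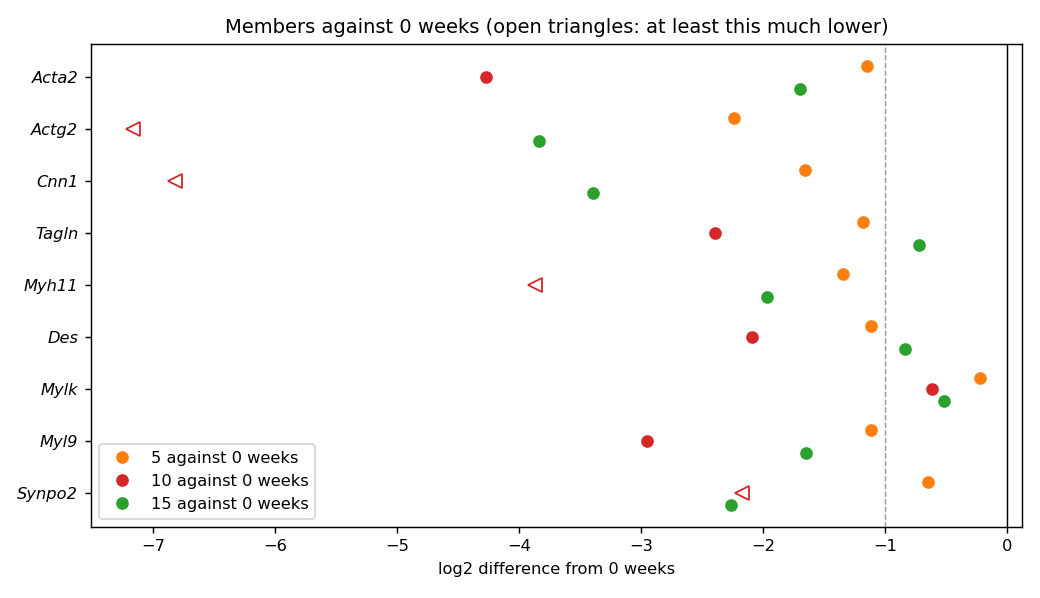
Log2 difference from 0 weeks (horizontal axis) of the 9 genes with a signal, at 5, 10 and 15 weeks (colours). Filled circles are measured differences, open triangles are bounds where the later array was not well above background, and the dashed line marks 2-fold lower. The widest spread was at 10 weeks, from -0.62 for Mylk to a bound of -7.16 for Actg2. Only the main scaling is drawn, with every point below 0. With hepatocyte marker scaling, not drawn, Tagln, Des and Mylk at 15 weeks and Mylk at 5 weeks were above 0.

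The dip was also seen in comparisons that do not use the array at 0 weeks. The steps from 5 to 10 and from 10 to 15 weeks both use the same 10-week array, so they are no independent check of it. Between 5 and 10 weeks 3 of 5 measured genes were lower, against 1.13% of all genes, and 4 more had bounds past 2-fold. Between 10 and 15 weeks 4 of 5 were higher and 0 lower, against 3.95% and 4.06% of all genes. A further 3 had bounds past 2-fold, and the median difference of the 5 measured genes was 1.30. Synpo2 could be given no fold there. Between 5 and 15 weeks 3 of 9 were lower, namely Actg2, Cnn1 and Synpo2, and 0 higher, against 4.3% and 4.08% of all genes. At 10 weeks 6 of the 9 genes were at least 2-fold lower than at both 5 and 15 weeks, bounds included, as were 0.507% of all 16958 genes above background at the other times. The 10-week array enters both sides of that count, so a single array decides it.

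The 15-week signals differed among the genes in how they stood to those of 5 weeks. At 15 weeks Tagln and Des exceeded their 5-week signals by 0.46 and 0.28 on the log2 scale. Acta2, Myl9 and Myh11 differed from them by -0.54, -0.53 and -0.63, within 2-fold. With arrays scaled by the median difference of hepatocyte markers, these became 0.08, 0.09 and -0.01. Actg2 and Cnn1 were 3.02-fold and 3.33-fold lower than at 5 weeks, and that scaling put Actg2 at -0.98, within 2-fold.

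The first question was whether these genes follow the activation of collagen genes. Collagens did not share the early decline. Of 16 collagen genes 12 were measured. At 5 weeks 0 of the 12 differed 2-fold from 0 weeks. At 10 weeks 3 were lower, with log2 differences of -1.42 for Col1a1, -1.22 for Col1a2 and -1.05 for Col4a1. At 15 weeks 9 of 12 were higher and 0 lower than at 0 weeks. The median difference was 1.67 for the collagens and -1.70 for the contractile genes.

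Col1a1, a chain of type I collagen, had log2 scaled signals of 1.79, 1.54, 0.38 and 4.0 at 0, 5, 10 and 15 weeks. Col1a2, the other chain, had 4.21, 4.04, 2.98 and 5.68, and Col3a1, of type III collagen, 2.44, 2.25, 1.45 and 4.70. These 3 were lowest at 10 weeks, as the contractile genes were, but highest at 15 weeks, where the contractile genes were below their first level. Col1a1 was 12.3-fold higher at 15 than at 10 weeks. In that step 11 of 12 collagens and 4 of 5 contractile genes were higher, with medians of 1.87 and 1.30. The 1.30 leaves out Actg2, Cnn1 and Myh11, with log2 bounds of 3.33, 3.43 and 1.89, and Synpo2, which had no fold. It is thus over fewer genes than the -1.70 against 0 weeks, and the 2 medians of that step are not closely comparable. Most genes of both groups were thus higher at 15 than at 10 weeks, while against 0 weeks collagens were mostly higher and contractile genes mostly lower, a difference that has no replicates to test it.

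Among other matrix genes there were differences both ways. Of 13 measured matrix activation genes 8 were higher at 15 than at 0 weeks. At 10 weeks 12 were measured, of which 1 was higher, by a log2 difference of 2.07. Postn, Thbs1 and Ccn2 were lower at 10 weeks by a log2 difference of -1.22, -1.01 and -1.01. Timp1, an inhibitor of matrix proteases, was not well above background at 0 weeks and was at least 2.69-fold higher at 10 weeks and at least 43.4-fold higher at 15 weeks. Of 19 stellate cell markers 0 differed 2-fold at 5 or 10 weeks and 6 were higher at 15 weeks. Lrat, which esterifies retinol in stellate cells, had log2 scaled signals of -0.78, -0.85, -0.63 and 0.10, with no dip at 10 weeks.

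**Figure D3:**
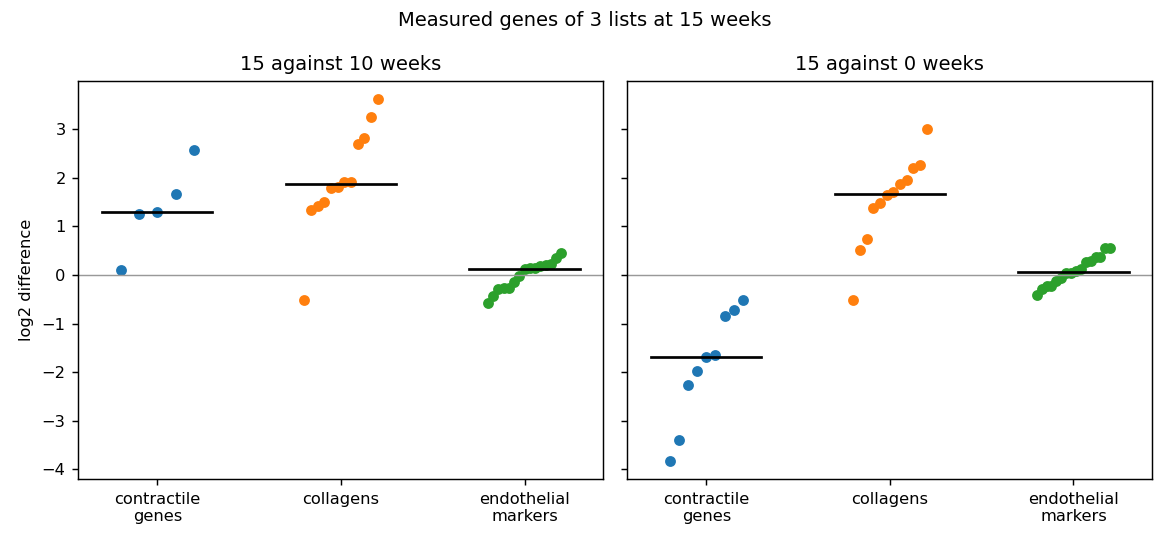
Log2 difference (vertical axis) of each measured gene among the contractile genes, the collagens and the pan-endothelial markers, for 15 against 10 weeks and 15 against 0 weeks; points are genes and black lines medians. Contractile genes had a median of 1.30 over 5 genes in the left panel and -1.70 over 9 in the right. Collagens had 1.87 and 1.67, over 12 genes in each. Contractile genes with bounds are not drawn. Only the main scaling is drawn, with Tagln, Des and Mylk below 0 in the right panel. With hepatocyte marker scaling, not drawn, these genes were above 0 at 15 against 0 weeks.

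The second question was whether the genes follow vessel content. Endothelial markers did not share the dip. Pan-endothelial markers are read from all endothelium, that of the sinusoids included, so they do not measure the content of muscular vessels alone. Of 15 pan-endothelial markers measured at 10 and 0 weeks 0 differed 2-fold, and the median log2 difference was 0.05. Pecam1, an adhesion molecule of endothelial junctions, had log2 scaled signals of -1.31, -0.82, -1.47 and -1.02. Cdh5, the cadherin of those junctions, had 0.73, 1.28, 1.08 and 1.28. At 5 weeks 1 marker, Erg, stood 34.6-fold higher than at 0 weeks, and it was not well above background at 10 weeks.

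Among large-vessel endothelial markers 1 of 15, Bmx, was lower at 10 weeks, by a log2 difference of -1.14, and 1 was higher. Vwf, the clotting factor stored in endothelium, had 2.33, 2.52, 1.64 and 2.46, a dip of less than 2-fold. None of the 17 sinusoidal markers differed 2-fold at 5 or 10 weeks. Of the pericyte markers 0 of 12 differed 2-fold at 10 weeks, and Rgs5, a regulator of G protein signalling in mural cells, had 0.20, 0.81, 0.66 and 1.56. The brightest gene of that list, Mcam, had 9.14, 9.14, 8.80 and 7.25, and the summed scaled signal of the list without it was 80.3, 75.9, 80.9 and 71.5.

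The rest of the contractile apparatus showed few such differences. Of 24 other genes of smooth muscle machinery 0 of 21 measured at 5 weeks and 0 of 20 at 10 weeks differed 2-fold from 0 weeks. Many of these genes, such as Vcl (vinculin) and Flna (filamin A), are also used by other cells. The exceptions were bounds. Pdlim3, a muscle alpha-actinin partner, was at least 11.6-fold lower at 10 weeks, and Synm, a filament protein that pairs with desmin, at least 3.25-fold lower.

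Few regulators differed before 15 weeks. Of 10 measured regulators of the serum response factor and myocardin pathway 0 differed 2-fold at 5 or 10 weeks, and Hey1, Heyl and Foxs1 were higher at 15 weeks. Srf itself had log2 scaled signals of 1.0, 0.88, 1.07 and 1.23, and Myocd was not well above background on any array. Of 17 contraction signalling genes 0 differed 2-fold at 5 or 10 weeks, and Prkg1, Gucy1a1, Ednra and Rgs5 were higher at 15 weeks. The cholecystokinin receptor Cckar, through which the gallbladder is known to contract, was above background at 0 weeks only and at least 3.38-fold lower at 10 weeks.

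Markers of other structures were in part lower beside the contractile genes. Of 12 gallbladder and mucous epithelium markers measured at 10 weeks 7 were lower than at 0 weeks, 4 more had bounds past 2-fold, and 1, Tff3, was higher by 1.97 on the log2 scale. The list differed from the contractile genes in its course. From 5 to 10 weeks 1 of 12 was lower, with 3 bounds, and 1 of 13 was at least 2-fold lower at 10 weeks than at both 5 and 15 weeks, against 6 of 9 contractile genes. At 15 weeks Tspan8, Mal and Ly6d were higher than at 0 weeks by a log2 difference of 1.04, 1.14 and 2.29. Dmbt1, a secreted mucosal glycoprotein, had log2 scaled signals of 6.94 and 5.08 at 0 and 5 weeks, was not well above background at 10 and 15 weeks, and was at least 1466-fold lower at 10 weeks. Lgals2, Cyp2s1 and Vsig2 had differences at 10 weeks of -3.47, -3.29 and -3.28, and at 15 weeks Lgals2 was at -3.72. The summed scaled signal of the list was 337, 223, 271 and 230 at 0, 5, 10 and 15 weeks. Without Pigr, its brightest gene, it was 197, 112, 91.0 and 132, against 102, 42.7, 11.9 and 36.4 for the contractile genes.

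Of 12 measured bile duct markers 5 were lower at 10 weeks, Muc1 had a bound past 2-fold, and 3 of 12 were at least 2-fold lower at 10 weeks than at both 5 and 15 weeks. Krt19, the keratin of bile duct cells, had 3.01, 0.67, -0.76 and 1.03, and Prom1, a protein of epithelial protrusions, 1.96, 0.49, -1.17 and 0.95. Anxa13 and Krt7 were lower at 10 weeks by a log2 difference of -2.68 and -1.75, but at 5 weeks Krt7 was 16.6-fold higher than at 0 weeks. Epcam, present in bile duct cells, had -1.77, -2.24, -2.73 and -1.02, within 2-fold of 0 weeks at every time. From 10 to 15 weeks 7 of 12 bile duct markers were higher. Their summed scaled signal without Tm4sf4, the brightest, was 33.6, 40.7, 33.3 and 26.5, a sum that shows no dip. The median difference from 0 weeks did dip, at -0.39, -0.95 and 0.08 after 5, 10 and 15 weeks. It was taken over 13 genes above background at 0 weeks, with signals under the measurable floor set to it.

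Portal fibroblast markers were lower at 10 weeks in 3 of 13 measured genes, Mfap4, Fbln2 and Fbln1, with differences of -1.46, -1.44 and -1.13, and 3 more, Eln, Gli1 and Clec3b, had bounds past 2-fold. At 5 weeks 0 of 15 measured were lower and 1, Dpt, was higher. At 10 weeks 4 of 14 were at least 2-fold lower than at both 5 and 15 weeks. Striated muscle gave little signal. Only 3 of 15 skeletal muscle markers were above background at 0 weeks, Acta1 on none of the arrays and Ckm at 10 weeks only. Heart markers had 2 of 8 above background at 0 weeks, of which Tnnt2 was at least 21.3-fold lower at 10 weeks. The part of the epithelial, fibroblast and heart markers in the contractile dip was not tested. In bulk liver RNA fewer cells of a type and less RNA per cell cannot be told apart.

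**Figure D4:**
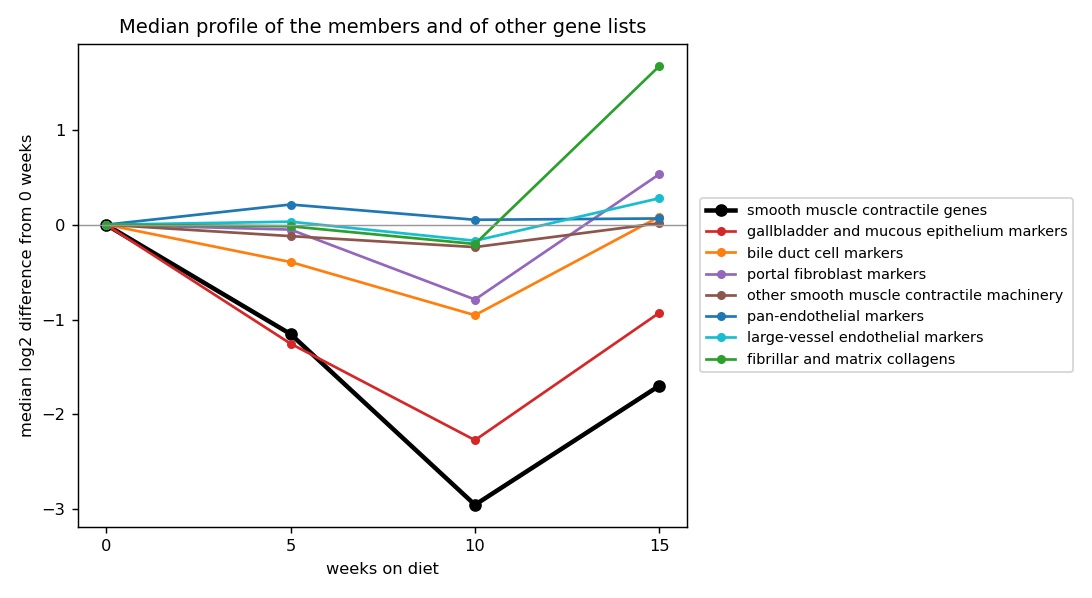
Median log2 difference from 0 weeks (vertical axis) against weeks on the diet (horizontal axis) for the contractile genes and 7 other lists, over genes above background at 0 weeks and with signals under the measurable floor set to it. The contractile genes ran through -1.15, -2.95 and -1.70 and the gallbladder and mucous epithelium markers through -1.25, -2.27 and -0.93, while the collagens ended at 1.67.

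Likeness was measured as the root mean square distance between the median profiles of 2 lists over the 3 differences from 0 weeks, on the log2 scale, so that 0 is an identical profile. Of 19 lists the gallbladder and mucous epithelium markers were nearest to the contractile genes at 0.596 over 17 genes. Several of those markers were known to be lower when the list was written, so their nearness is no independent evidence. The labels do not say whether the gallbladder was removed before the liver was frozen. Heart markers followed at 0.659 over only 2 genes, and bile duct markers at 1.61. With the mean of a gene's probes, or without locally bright spots, the enteric neuron and hepatocyte lists came next in place of both, and with normexp the enteric neuron list took the place of the bile duct markers. Enteric neuron and glia markers lay at 1.75, hepatocyte markers, of which 1 of 17 was lower at 10 weeks, at 1.87, portal fibroblast markers at 1.90 and skeletal muscle markers at 1.92. The other smooth muscle machinery lay at 1.95, large-vessel endothelial markers at 2.09, pan-endothelial markers at 2.16, matrix activation genes at 2.20, stellate cell markers at 2.52 and collagens at 2.60. Only macrophage markers, at 3.36, were farther than the collagens. The contraction signalling list, with medians of 0.05, -0.06 and 0.05, lay at 2.07, so a distance near that can mean little change. Of 17 hepatocyte markers 0 were at least 2-fold lower at 10 weeks than at both 5 and 15 weeks. Of 14 portal fibroblast markers 4 were, yet that list lay farther, so the order does not grade likeness of the dip.

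Gene by gene, the gallbladder and mucous epithelium list was nearest for Acta2, Actg2, Cnn1, Tagln, Myh11, Des and Myl9, was second for Synpo2 and was 17th of 19 for Mylk. Des and Tagln were closest to it, at 0.139 and 0.144, and Actg2 was farthest, at 3.34. Collagens were 17th for Acta2 and 18th for the other 8 genes. All distances share the 0-week array and rest on 4 arrays, and many lists share cell types.

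Of 18063 genes above background at 0 weeks, the contractile genes included, 178 lay within a distance of 1 of the median contractile profile. The 10 nearest outside the group were Wscd2 at 0.194, Mapk13 at 0.313, Mmp7 at 0.423, Prom1 at 0.452, Pdlim3 at 0.559, Igsf1 at 0.605, Parm1 at 0.611, Sult1e1 at 0.642, Klf5 at 0.643 and 1810053B23Rik at 0.645. Pdlim3 and Klf5 were above background on 3 arrays only, so their 10-week values are floors and their distances and places are approximate. Parm1 had 10 spots in locally bright areas over the 4 arrays and Sult1e1 had 2. Mmp7, Prom1, Pdlim3 and 1810053B23Rik had 1 each. Mapk13 had log2 scaled signals of 0.38, -0.75, -2.67 and -0.79 at 0, 5, 10 and 15 weeks, and Mmp7, a matrix protease of epithelia, 0.61, -0.55, -3.04 and -0.86. Both were lowest at 10 weeks and partly higher at 15 weeks, with the 15-week array close to that of 5 weeks.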

How the data were processed

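Liver RNA of 4 samples was labelled with Cy3 and hybridised to 1-colour Agilent arrays, 1 array per time on the diet. The authors deposited, per the file headers, Agilent Feature Extraction 10.7.3.1 output, whose processed signal is a linear fluorescence intensity after background subtraction, with spots marked uneven, outlying, saturated or well above background. They also deposited a table of intensity that equals the processed signal divided by 1 constant per array. The 4 scans share a scan time, so no scan batch was found.

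Processed signals were put on the log2 scale and each array was centred on the 75th percentile of its spots that are not controls (Python 3.11.15, numpy 2.4.6, pandas 2.3.3, matplotlib 3.10.9; R 4.3.3 and limma 3.58.1 for the normexp alternative with an offset of 50). Control, uneven and outlier spots were left out, spots of a probe were averaged and a gene was represented by its brightest probe. Bounds used the larger of the dim probe's signal and the lowest signal among probes well above background on that array, which was -3.55, -3.44, -3.58 and -4.11 at 0, 5, 10 and 15 weeks on the log2 scale. A spot lay in a locally bright area when at least 5 neighbours within 3 rows or columns were over 2-fold brighter than on the other arrays. Of 55681 probes 27509 took their name by accession, 3549 by current symbol and 404 by a former symbol from the RefSeq table of GRCm38.p6, and 24219 kept the file's name. Probe positions are those of the files, in mm9.

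The code that counts 2-fold differences was checked on simulated signals, which says nothing of error between arrays or animals. The 10 genes and the 19 other lists were chosen with earlier results of these data known. From the other lists, at most 4 genes called in the direction of most members at 10 weeks and a set of defining genes are named, with the 10 genes of nearest profile; others named were chosen after their values were seen. With 1 array per time no test was made and no p-value is given, and the number of arrays limits the precision. The alternatives changed the scaling, background correction, spot and probe rules and fold threshold.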

Additional observations from a re-analysis of the deposited data

How the results depend on the processing

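With 1 array per time there is no replicate to leave out, and the closeness of these values under other processing says nothing about animals. Beside the values reported, 13 other settings were tried one at a time, of which the median difference of hepatocyte markers was added after seeing the data, as was the comparison of 15 with 5 weeks. Scaling to the median level of hepatocyte markers put 2 genes at least 2-fold lower at 5 weeks and 3 at 15 weeks, with medians of -0.62 and -0.69. The median difference of the same markers kept 7 genes lower at 5 weeks, with a median of -1.07, and 4 at 15 weeks, with a median of -0.99. It left 1 gene lower at 15 than at 5 weeks. Without the background filter the counts were 8 lower at 10 weeks, 7 lower from 5 to 10 weeks and 7 higher from 10 to 15 weeks, since genes in the background then entered. A 3-fold threshold left 2 lower at 5 weeks and 2 higher from 10 to 15 weeks. Under hepatocyte marker scaling Tagln, Des and Mylk at 15 weeks and Mylk at 5 weeks lay above 0 and within 2-fold, and Mylk at 15 weeks was at 0.19 with the median difference. The 10-week median lay between -1.85 and -2.79 under the settings run. The gallbladder and mucous epithelium list was the nearest list in each setting in which likeness was computed, while the lists next in order changed. Normexp put Myh11 and Des at 5 weeks within 2-fold (-0.94 and -0.76), and Des from 10 to 15 weeks (0.61). Signals near the floor, as of Synpo2 at 15 weeks, limit what can be measured. No paired analysis was possible because each time has 1 array.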
